A study of Mus musculus with 2 samples.

Results

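The genes described here are 10 members of the Hippo pathway and its YAP-TEAD output: the coactivators Yap1 and Wwtr1 (TAZ), the DNA-binding factor Tead1, the kinases Lats1 and Lats2, the angiomotin-like proteins Amotl1 and Amotl2, and the target genes Ccn1, Ccn2 and Ankrd1. They were chosen by name, as every probe set whose platform annotation gave exactly 1 of these symbols, which made 26 probe sets for 10 of the 18193 genes with such a probe set. The arrays measured epithelium of ICR mouse fetal lung, isolated at embryonic day 11 and held in Matrigel, a basement membrane gel. Both cultures first spent 4 days with FGF10, the growth factor of lung budding, and CHIR99021, an inhibitor of the kinase GSK3 that stabilises beta-catenin. The pieces were then re-embedded for 2 days with FGF10, and CHIR99021 was present for 1 culture and absent for the other. Each condition was 1 array, with no replicate, so no error between cultures and no test could be given, and the control culture had itself been exposed to the inhibitor. The labels do not say how many embryos were pooled.

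In the Hippo pathway, Lats kinases phosphorylate Yap1 and Wwtr1 and so keep them out of the nucleus, where they would otherwise join TEAD factors on target genes. Angiomotin-like proteins hold Yap1 at junctions and in the cytoplasm. Lats2, Amotl2, Ccn1, Ccn2 and Ankrd1 are themselves widely used target genes, and the first pair feeds back on the pathway. In fetal lung epithelium Yap1 is known to be needed for branching and for the airway program. An RNA level does not report the phosphorylation or the location of Yap1 and Wwtr1.

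The TEAD element, GGAATG on one strand and CATTCC on the other, is shown here in the promoters of the 3 target genes whose tabulated promoter held it, because their signals are what an expression array can say about YAP-TEAD output. The sequences are RefSeq's for GRCm38.p6, 250 bases ending just before the annotated start, written 5′ to 3′ on the gene's strand with the element in capitals. That of Ccn1 lies at chr3:145649986-145650235 on the minus strand, that of Amotl2 at chr9:102717554-102717803 on the plus strand and that of Ankrd1 at chr19:36119845-36120094 on the minus strand.
Ccn1: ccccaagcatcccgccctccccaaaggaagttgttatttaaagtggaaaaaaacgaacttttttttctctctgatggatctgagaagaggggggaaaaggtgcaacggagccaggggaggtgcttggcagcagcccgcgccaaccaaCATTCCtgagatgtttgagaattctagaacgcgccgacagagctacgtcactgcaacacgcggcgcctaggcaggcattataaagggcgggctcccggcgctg
Amotl2: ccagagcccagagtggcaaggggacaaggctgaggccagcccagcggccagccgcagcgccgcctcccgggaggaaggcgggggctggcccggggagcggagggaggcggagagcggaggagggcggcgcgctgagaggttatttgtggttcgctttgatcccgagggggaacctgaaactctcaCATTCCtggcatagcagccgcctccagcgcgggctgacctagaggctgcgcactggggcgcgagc
Ankrd1: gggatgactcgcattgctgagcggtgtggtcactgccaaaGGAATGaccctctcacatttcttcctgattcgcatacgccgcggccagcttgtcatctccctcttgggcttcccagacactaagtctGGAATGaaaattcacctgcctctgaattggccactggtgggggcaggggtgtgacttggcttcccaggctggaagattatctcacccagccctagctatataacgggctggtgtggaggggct
The element began 103 bases before the start in Ccn1 and 65 bases before it in Amotl2, both as CATTCC, and 210 and 123 bases before it in Ankrd1, both times as GGAATG. Among the 8 members with a tabulated promoter, 5 held the element; the other two were Yap1, at 141 bases before the start, and Wwtr1, at 136 bases before the first of its tabulated starts. Lats1, Lats2 and Amotl1 had no match in this window, and Tead1 and Ccn2 had no entry. Over all tabulated promoters, 12.6% of 32851 held the element on either strand in the same 250 bases, and counted by gene, as the members are, 14.4% of 27025 did. A match is a match of letters and not a measured binding site.

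No member reached a 2-fold difference between the arrays when each was read by its brightest probe set. The 9 members above background all had a lower signal with CHIR99021, with log2 ratios (with over without) between -0.95 for Ccn2 and -0.28 for Amotl1. Ankrd1 was below background on both arrays. Wwtr1, Amotl2 and Ccn2 were the 3 members past 1.5-fold, in the direction that 38.7% of all measured genes passed. Across all 12917 genes above background, 20.3% were past 2-fold in either direction, and 77.4% had a lower signal with CHIR99021, so the common direction of the members was that of most genes. Their median log2 ratio was -0.46, against -0.42 for all measured genes, and 8 of the 9 lay between the lower and upper quartiles of all measured genes, -0.84 and -0.04. In bulk RNA of this kind, fewer cells of a type and less RNA per cell cannot be told apart. Background was a floor of 19.2 on the array without and 12.7 on the array with CHIR99021, the 95th percentile of 80 probe sets for olfactory and vomeronasal receptors. Values below it were raised to it.

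**Figure D1:**
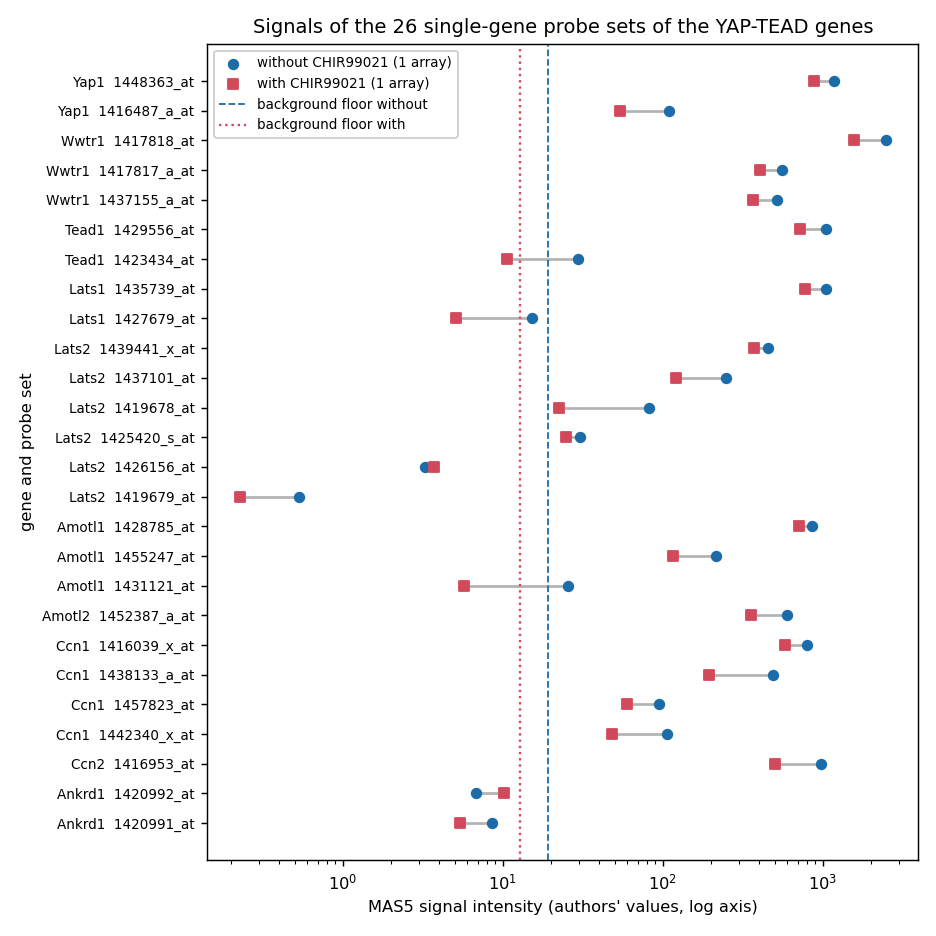
MAS5 signal intensity on a log axis for each of the 26 probe sets of the 10 genes, with a circle for the array without CHIR99021, a square for the array with it, and vertical lines for the floors of 19.2 and 12.7. The 21 probe sets above a floor on at least 1 array all have the square to the left of the circle, and both probe sets of Ankrd1 lie left of both lines.

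The coactivators were bright on both arrays and lower with CHIR99021 by less than 2-fold. Yap1, the main effector of the pathway, had a signal of 1172 without and 881 with CHIR99021 by probe set 1448363_at, a log2 ratio of -0.41. A second probe set of Yap1, 1416487_a_at, designed from the same transcript record, was far dimmer and had 110.1 and 54.2, 2.03-fold lower. The readings of Yap1 therefore fell on different sides of the 2-fold line. Wwtr1, the paralogue of Yap1, had 2489 without and 1560 with CHIR99021 by 1417818_at, 1.60-fold lower. Its other probe sets gave 558 and 408, and 517 and 368, which are 1.37-fold and 1.40-fold lower. All 3 readings of Wwtr1 were lower with the inhibitor and none reached 2-fold.

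Tead1, which brings the coactivators to DNA, had 1048 without and 720.0 with CHIR99021 by 1429556_at, 1.46-fold lower. Its dim probe set 1423434_at had 29.6 without and was below the floor with CHIR99021, at least 2.33-fold lower. The other TEAD genes differed among themselves. Tead2, a paralogue prominent in embryonic tissue, was higher with CHIR99021, at 653 against 441, a log2 ratio of 0.57 that 94.8% of the genes above the floor on both arrays lay below. Tead3 had 93.5 without and 75.1 with CHIR99021. Tead4 was dim, with 45.2 and 18.9, 2.40-fold lower, and its second probe set had 50.9 without and was below the floor with CHIR99021, at least 4.00-fold lower. Tead2, read by 1 probe set, was the TEAD gene on the other side of 0 on the authors' scale. After loess, quantile normalization and median centring Tead3 was above 0 as well, at 0.25 after loess. Tead1 was above 0 after median centring only, at 0.04.

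The Lats kinases, which inhibit Yap1 and Wwtr1, were within 2-fold by their brightest probe sets. Lats1 had 1042 without and 776 with CHIR99021 by 1435739_at, 1.34-fold lower, and its other probe set was below both floors. Lats2, a kinase and also a target gene, was read by 6 probe sets that did not give 1 value. The brightest, 1439441_x_at, had 457 without and 371 with CHIR99021, 1.23-fold lower. The next, 1437101_at, had 250 and 121, 2.05-fold lower, and 1419678_at had 81.5 and 22.5, 3.61-fold lower. The last above the floor, 1425420_s_at, had 30.3 and 24.8, 1.23-fold lower, and the remaining pair was below both floors. The suffixes x and s mark probe sets in which some or all probes can also match other transcripts, and the readings of Lats2 closest to 0 were those with these suffixes. The span among the 4 readings, 1.56 on the log2 scale, was wider than for any other member. Whether the size for Lats2 is nearer 1.23-fold or 3.61-fold cannot be told from these arrays.

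The angiomotin-like genes were also lower with CHIR99021. Amotl1 had 859 without and 709 with CHIR99021 by 1428785_at, 1.21-fold lower and the smallest difference among the members. Its second probe set had 215 and 115, 1.87-fold lower, and its dimmest had 25.7 without and was below the floor with CHIR99021, at least 2.02-fold lower. Amotl2, which is also a target gene, had a single probe set, 1452387_a_at, with 596 without and 355 with CHIR99021, 1.68-fold lower. Amot, the founding member of this family, had 431 and 204.5, 2.11-fold lower. Its second probe set had 59.0 and 45.1, 1.31-fold lower.

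The secreted target genes included the member closest to the threshold. Ccn2 (CTGF), a matricellular protein and the most used readout of YAP-TEAD activity, had 968 without and 499 with CHIR99021 by its only probe set, 1416953_at, 1.94-fold lower. Of the genes above the floor on both arrays, 19.0% had a lower ratio than Ccn2. Ccn1 (CYR61), its close relative, had 793 and 577 by 1416039_x_at, 1.37-fold lower. The other readings of Ccn1 were all further from 0: 1438133_a_at had 488 and 194, 2.52-fold lower, 1442340_x_at had 105.6 and 48.1, 2.20-fold lower, and 1457823_at had 94.4 and 60.1, 1.57-fold lower. The last pair was designed from 1 sequence record. Of the 4 readings of Ccn1, the smallest difference came from the brightest probe set, which carries the x suffix. Ankrd1, a muscle ankyrin repeat protein and a target gene, had 6.76 without and 10.1 with CHIR99021 by 1420992_at and 8.60 and 5.38 by 1420991_at. Both probe sets were under both floors, so no fold is given, and their order differed.

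Counted by probe set in place of gene, 7 of the 21 measured readings were at least 2-fold lower with CHIR99021 and 0 were at least 2-fold higher. All 21 had a lower signal with CHIR99021, as did 80.6% of all measured single-gene probe sets. The 7 came from Yap1, Tead1, Lats2, Amotl1 and Ccn1, and none was the brightest probe set of its gene. Over all 23972 measured single-gene probe sets, 24.2% were at least 2-fold lower. The median log2 ratio of the members' readings was -0.67, against -0.51 for all. After loess, which removes the part of the log2 ratio that follows the signal, 1 of the 21 readings remained at least 2-fold lower, 1419678_at of Lats2, with a background of 10.3%. The probe sets sit on the same 2 arrays and are not replicates of the cultures.

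**Figure D2:**
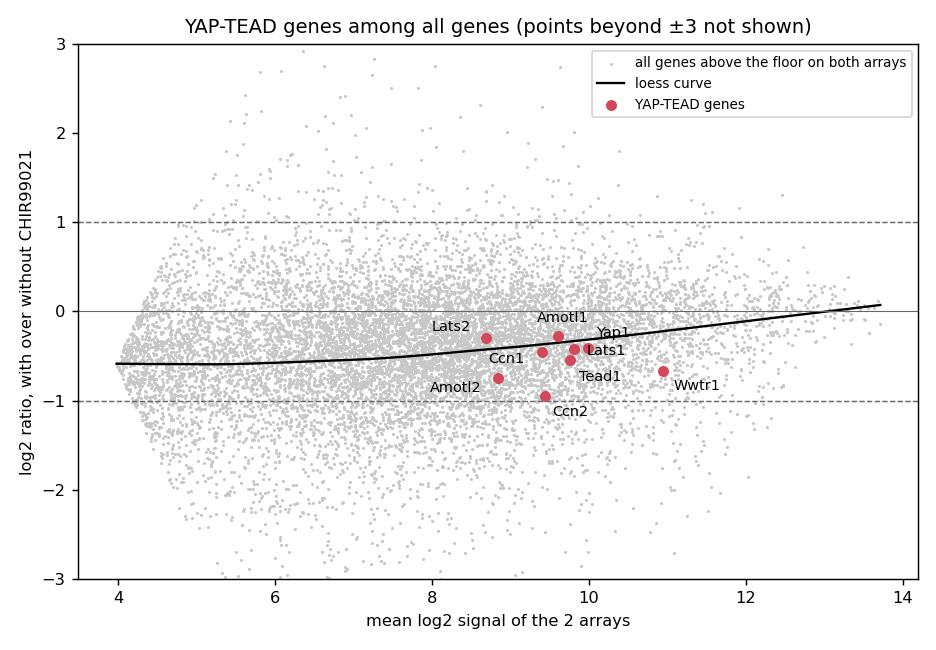
Log2 ratio (with over without CHIR99021) against the mean log2 signal for all genes above the floor on both arrays, with the 9 measured members in red, the loess curve in black and dashed lines at 2-fold. The members lie between -0.95 and -0.28, inside the dashed lines, with Ccn2, Amotl2 and Wwtr1 furthest below the curve.

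The sign of some members, each read by its brightest probe set, differed between scalings of the arrays. On the authors' scale and after scaling on the 9 hybridization controls, 9 of 9 measured members were below 0. After quantile normalization and after loess 7 were, and after median centring, which added 0.58 to every log2 ratio, 3 were: Wwtr1, Amotl2 and Ccn2. By their brightest probe sets these 3 were below 0 under all 5 scalings and had the lowest ratios of the members in each. Ccn2 was at -0.59 after loess, -0.52 after quantile normalization and -0.38 after median centring. Amotl2 was at -0.33, -0.28 and -0.17 under the same scalings, and Wwtr1 at -0.45, -0.40 and -0.10. The other readings of Wwtr1 were at -0.04 and -0.07 after loess. By the median over probe sets on the authors' scale, which includes those below both floors, Wwtr1 was the member closest to 0, at -0.49. By the median over measured probe sets only, Lats1 was closest, at -0.43. By either median Amotl1, Ccn1 and Tead1 were at -0.90, -0.89 and -0.88, below Amotl2 at -0.75. By their brightest probe sets Lats2 and Amotl1 were above 0 after loess, quantile normalization and median centring, at 0.13 and 0.08 after loess. Their other readings did not all share this sign. After loess they were -0.52, -1.26 and 0.30 for Lats2, and -0.37 and at or below -0.43 for Amotl1. Yap1, Lats1 and Ccn1 lay at -0.10, -0.09 and -0.09 after loess by their brightest probe sets, next to the median of all genes at 0.04. The second reading of Yap1 was at -0.45, and the other readings of Ccn1 were at -0.87, -0.08 and -0.56. No member passed 2-fold by its brightest probe set under any of the 5 scalings. After loess, 13.3% of all measured genes did in either direction. The members' median was then -0.10, against 0.04 for all measured genes. Of the 9 members, 7 lay between the lower and upper quartiles after loess, -0.35 and 0.41.

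**Figure D3:**
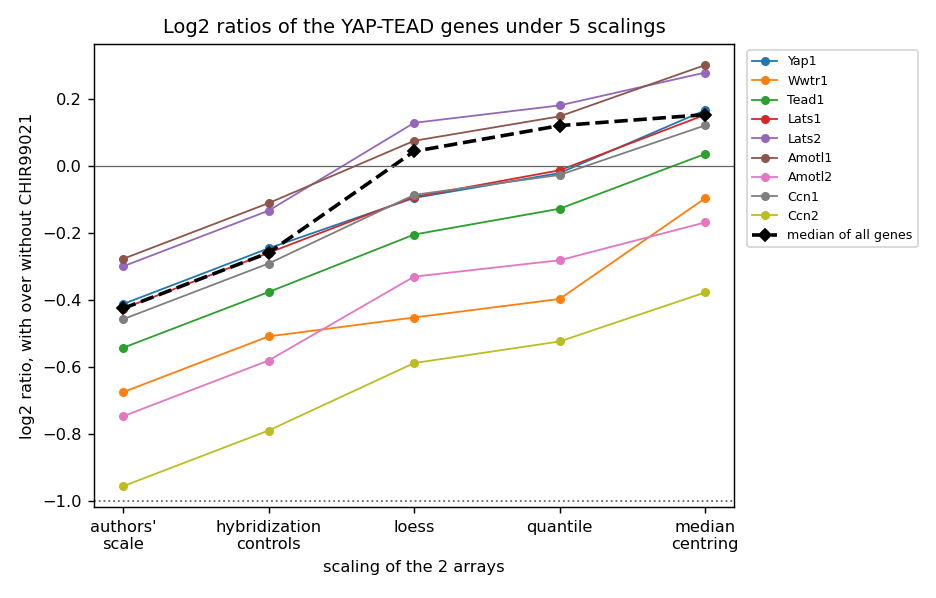
Log2 ratio (with over without CHIR99021) of the 9 measured members by their brightest probe sets, 1 line each, under 5 scalings of the arrays. The median of all measured genes is a dashed black line and the 2-fold line is dotted at -1. Most lines cross 0 between the left and the right, while Ccn2, Amotl2 and Wwtr1 stay below 0 and Lats2 and Amotl1 stay above the dashed line.

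The other genes of the Hippo pathway were mostly within 2-fold. Of 36 listed genes 34 had a probe set and 33 were measured, of which 5 were at least 2-fold lower with CHIR99021, 0 at least 2-fold higher and 28 within 2-fold. Over all measured genes 18.4% were at least 2-fold lower and 1.9% at least 2-fold higher. The median log2 ratio of the list was -0.46. Besides Tead4 and Amot, the lower genes were Wwc1 (KIBRA), a scaffold that activates Lats kinases, at 1862 without and 794 with CHIR99021, Taok3, a kinase of the family that activates the Hippo kinases, at 1589 and 670, and Stk38l, a kinase related to Lats, at 157 and 61.1. The 4 probe sets of Taok3 were all past the threshold, between 2.17-fold and 2.50-fold lower. Wwc1 had 3 readings above both floors, between 2.13-fold and 2.34-fold lower, and a dim one that was under the floor without CHIR99021, while Stk38l ranged from 1.62-fold to 3.56-fold lower. These 5 calls were lost after loess, quantile normalization and median centring, and Wwc1 and Taok3 had log2 ratios of -0.94 and -0.93 after loess. Among the brightest genes of the list, Stk4, the MST1 kinase at the head of the cascade, had 1281 without and 1611 with CHIR99021. That probe set carries the s suffix, and the other probe sets of Stk4 were lower with CHIR99021, at 519.8 and 403, and at 44.2 and 29.6. Strn3, a subunit of the phosphatase complex that acts on the Hippo kinases, had 2215 and 2218, but its other probe sets were 1.69-fold and 1.81-fold lower. Csnk1d, a kinase that marks Yap1 for breakdown, had 2056 and 1499 by a probe set with the x suffix, and its 4 other readings were between 1.78-fold and 3.54-fold lower. Ajuba, a LIM protein that restrains Lats, had 1766 and 1188.

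The listed other genes often used as YAP-TEAD targets spread far more widely than the members did. Both lists were chosen with earlier results of these data known, so the contrast describes the listed genes only. Of 24 listed genes 22 had a probe set and 20 were measured, with 2 at least 2-fold higher, 6 at least 2-fold lower and 12 within 2-fold, and a median log2 ratio of -0.78. Of all 12917 measured genes, 18.4% passed the 2-fold line downward and 1.9% upward. Cavin2, a coat protein of caveolae, had 1329 without and 26.3 with CHIR99021, 50.6-fold lower. Its other probe sets had 694 and 597 on the array without CHIR99021 and were under the floor on the other. Myof, a membrane repair protein, had 672 and 51.3, 13.1-fold lower, by a probe set with the s suffix, and its other probe set was below both floors. Ccdc80, a matrix protein, went the other way with 37.3 without and 510.4 with CHIR99021, 13.7-fold higher, and its second probe set was below the floor without and at 26.7 with CHIR99021. Tgfb2, a TGF-beta ligand, was 2.39-fold higher, at 3903 against 1635, and all 4 of its probe sets were higher, the least at a log2 ratio of 0.69. These 4 genes kept their direction under all 5 scalings. The remaining lower genes were Arhgap29 at 2490 without and 1008 with CHIR99021, Dock5, an exchange factor for Rac, at 276 and 124, F3, tissue factor, at 492 and 236, and Tagln, a smooth muscle actin-binding protein, near the floor at 33.4 and 13.7. Of these, only Arhgap29 was still at least 2-fold lower after loess, at a log2 ratio of -1.05, as were 942 of all 12917 measured genes. Arhgap29 was just short of 2-fold after quantile normalization and at -0.73 after median centring. The other readings of Dock5 fell on both sides of the 2-fold line, 1.77-fold lower by 1425747_at and at least 6.31-fold lower by 1439129_at. Among the brightest genes, Birc5 (survivin), a mitotic inhibitor of apoptosis, had 910.4 and 1293, and Fstl1, a secreted glycoprotein, 2188 and 2624, while the other probe set of Fstl1 had 2044 and 1922.

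**Figure D4:**
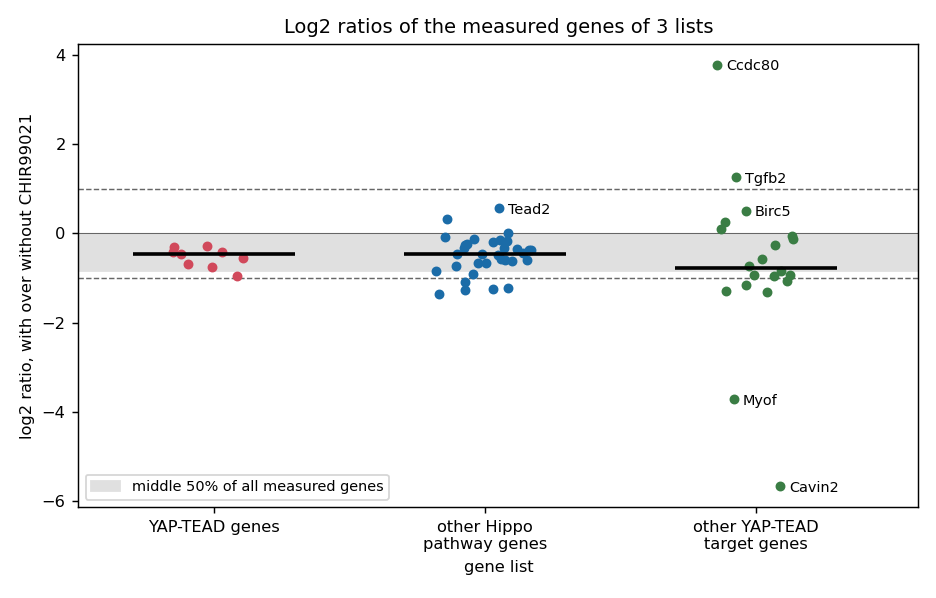
Log2 ratio (with over without CHIR99021) of each measured gene, as points, for the 9 YAP-TEAD genes, the 33 other Hippo pathway genes and the 20 other target genes, with the median of each list as a black bar, the quartile range of all measured genes in grey and dashed lines at 2-fold. The first pair of lists lies mostly within the grey band, while Cavin2, Myof, Ccdc80 and Tgfb2 of the last list lie far outside it. All lists were chosen with earlier results of these data known.

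Quality values differed between the arrays. For Actb the signal of the 3' control probe set over that of the 5' one was 1.29 without and 3.18 with CHIR99021, and for Gapdh it was 0.737 and 1.62. All 8 epithelial markers were above the floor without CHIR99021 and 7 with it, Nkx2-1 being the exception, with summed signals of 39621 and 24801. Of 12 mesenchymal markers 6 were above the floor on each array, with summed signals of 724 and 639, and 1 of 5 endothelial markers was above it on each. For the 3 mesothelial markers the summed signals were 476 and 7.93, of which Msln, also made by epithelial cells, gave 471 and 4.84, and 1 of the 3 blood markers with a probe set was above the floor on each array. No marker was listed at 0. The part of these values in the ratios was not tested.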

How the data were processed

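RNA of 2 cultures was hybridized to 1 Affymetrix array each, from 100 ng of total RNA labelled with a 3' in vitro transcription kit, per the labels' protocols. The authors' deposited intensity values were made with MAS5, per the submitters' processing notes, and are linear, not log, by their range. The scaling target and the version are not given in the sources used here. Signals ran up to 14129 without and 13693 with CHIR99021, with medians over probe sets other than controls of 32.9 and 20.3. MAS5 subtracts mismatch signal, so dim values scatter. The number of arrays limits the precision.

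Probe sets were named from the platform annotation, and the Entrez identifiers of all 26 member probe sets were found in the RefSeq table of GRCm38.p6. Of 45101 probe sets, 34945 named 1 gene, 932 named several and were not used, 9160 were unnamed here and 64 were controls. A gene was read by its brightest single-gene probe set, with the floor of each array as given above, a threshold of 2-fold and no p-value. Scalings tried were loess (span 0.4), quantile normalization, division by the median of the probe sets above the floor, and the median of 9 hybridization controls with r2 in their names. Other settings were floors at percentiles 99 and 50 or none, an offset of 16, medians over probe sets, omission of _x_at and _s_at probe sets, and thresholds of 1.5 and 3. A median over measured probe sets was chosen after seeing the data.

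The members and both further lists were chosen with earlier results of these data known. Named from those lists were genes past 2-fold, the 4 brightest, and the TEAD and angiomotin families. No gene was named for likeness of pattern, since 2 arrays give 1 ratio per gene. Python 3.11.15, numpy 2.4.6, pandas 2.3.3, statsmodels 0.14.6 and matplotlib 3.10.9 were used. The procedure was tested on simulated arrays with a fixed shift and changes in bright genes only. A shift that follows the signal and changes near the floor were not simulated.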

Additional observations from a re-analysis of the deposited data

How the results depend on the processing

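The count of 0 members at least 2-fold higher held under every setting run. The count of 0 members at least 2-fold lower became 2 of 9 without _x_at and _s_at probe sets. Lats2 then stood at a log2 ratio of -1.04 and Ccn1 at -1.33. Under that setting 2442 of 12592 measured genes were at least 2-fold lower. At a 1.5-fold threshold the count was 3, and 38.7% of all measured genes passed it in that direction. For the other Hippo genes, 0 higher became 1 after median centring and 1 after quantile normalization (Tead2), and 5 lower became 0 after median centring, 0 after quantile normalization, 0 after loess, 11 at 1.5-fold and 0 at 3-fold. For the other target genes, 2 higher became 1 at 3-fold, and 6 lower became 2 after median centring, 2 after quantile normalization, 3 after loess, 11 at 1.5-fold and 2 at 3-fold. Counts that stayed within 1.5-fold of the first count are not all listed. Among them were 3 higher target genes after median centring, 8 lower by the median over measured probe sets and 4 lower after scaling on hybridization controls. The thresholds change these counts by construction; for the scalings the cause was not tested. Higher genes among all calls went from 245 against 2380 lower to 998 against 818 after median centring, 939 against 817 after quantile normalization and 778 against 942 after loess. Median centring added 0.58 to every log2 ratio, more than the SD of 0.557 between probe sets of a gene. All 24 recomputed ratios of single named genes therefore moved by more than that SD. Under the other settings 18 of 239 did. These settings include other floors, which leave a ratio unchanged where both signals stay above them. Of the named genes past 2-fold, 0 changed direction under any setting, but a shift of 0.58 cannot reverse such a gene. Among the genes within 2-fold, the sign of some members and of Tead3 differed between scalings, as described above. A probe set below both floors has the floors' own log2 ratio, -0.59, which enters the planned median over probe sets. Signals near the floor limit Ankrd1, Tead4, Tagln and the dim probe sets. No paired analysis was possible because each condition has 1 array.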

Other observations

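A further probe set named both Lats2 and Xpo4, a nuclear transport receptor, and was left out because it names 2 genes. It had a signal of 158 without and 82.6 with CHIR99021, between the readings of the Lats2 probe sets described above.

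Where a gene had at least 2 readings above both floors (5335 genes), the dimmest reading was below the brightest in 66.3%, with a median difference of -0.24 on the log2 scale. Of the 5 members with such probe sets it was below in 3, by 0.61 for Yap1, 0.62 for Amotl1 and 0.68 for Ccn1, while for Lats2 the difference was 0.01 and for Wwtr1 0.19.

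Genes whose tabulated promoter held the TEAD element had a median log2 ratio of -0.49 over 1367 measured genes, and those with a promoter entry and no match had -0.41 over 9095. At least 2-fold lower were 21.7% of the first and 17.8% of the second. The difference was not tested, and the element is 6 letters long and common.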
